A study of Mus musculus with 6 samples.

Results

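Genes of the neutrophil granule programme, 10 in number, were followed in cultured mouse fetal liver erythroblasts exposed to carbon dots. They were chosen by symbol as genes that mark successive stages of granulocyte maturation, and all 10 of them were found among the 17691 genes of the count table and of the FPKM table. The primary (azurophil) granule genes were Mpo, Elane, Prtn3 and Ctsg, the secondary (specific) granule genes were Ltf, Ngp, Camp and Lcn2, and S100a8 and S100a9 completed the set. In RefSeq on GRCm38.p6, Mpo lies at chr11:87793784-87804412, Elane at chr10:79886312-79888216, Prtn3 at chr10:79879667-79883174, Ctsg at chr14:56099885-56102574, Ltf at chr9:111019292-111042766, Ngp at chr9:110419808-110423012, Camp at chr9:109847377-109849456 and Lcn2 at chr2:32384637-32387739. S100a8 and S100a9 lie at chr3:90669071-90670034 and chr3:90692630-90695721. All 10 also passed the filter on low counts, which 12283 genes passed. The treated group consisted of 3 libraries (CDs 1 to 3) from cells grown for 30 h with carbon dots (CDs) at 1 ug/ml, nanometre-sized carbon particles derived from the plant Codonopsis pilosula. The control group consisted of 3 libraries (untreated 1 to 3) from cells grown in the same way without CDs. Both groups were fetal liver erythroblasts of the mouse strain C57BL/6J, depleted of cells bearing TER119, an antigen of later erythroid cells, and kept in medium with erythropoietin, the hormone that supports red cell precursors. The depletion removes later erythroid cells and would leave other TER119-negative cells of the liver in place. Nothing in the labels says whether the numbered libraries came from separate litters, cultures or days, so the p-values measure the spread between these libraries, which may be technical in part.

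Neutrophils fill their granules in waves. Promyelocytes make the proteins of the primary granules, myelocytes and metamyelocytes make those of the secondary granules, and the mRNA of the first wave declines before that of the second reaches its peak, so the balance between the sets is commonly read as a sign of granulocyte stage. The transcription factors C/EBP alpha, PU.1 and MYB act on genes of the first wave, and mice without C/EBP epsilon lack secondary granules. Mpo encodes myeloperoxidase, the enzyme that makes hypochlorous acid, and Elane, Prtn3 and Ctsg encode the serine proteases neutrophil elastase, proteinase 3 and cathepsin G. Ltf encodes the iron-binding protein lactotransferrin, Camp the antimicrobial cathelicidin, Ngp a neutrophil granule protein related to the cathelicidins, and Lcn2 lipocalin 2, which binds bacterial siderophores. S100a8 and S100a9 encode the calcium-binding subunits of calprotectin, which is stored mainly in the cytosol, so they belong to the same maturing cells without being granule proteins in the strict sense.

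Upstream sequences are shown for 2 primary and 2 secondary granule genes, because most genes of the classes were found to follow different patterns over the libraries. Elane stood between the classes, by the root mean square difference of log2 CPM centred over the libraries. It was nearer to Ctsg (0.325) and Prtn3 (0.350) than to Ngp (0.483), but nearer to Ngp than to Mpo (0.621). Elane and Prtn3 are neighbours on the same strand, 3073 bases apart in the GENCODE M21 annotation, and Ngp and Ltf lie on one stretch of chromosome 9 with Camp, with 570 kb between Camp and Ngp and 596 kb between Ngp and Ltf. Each sequence is the 250 bases before the RefSeq transcription start in GRCm38.p6, read 5′ to 3′ on the strand of the gene, which is the plus strand for all 4. Capitals mark matches, on either strand, to TTGCNNAA (bound by C/EBP factors), GAGGAA (the core of PU.1 sites), TAACNG (bound by MYB) or TATAAA (the TATA box). The 4 windows are chr10:79886062-79886311 for Elane, chr10:79879417-79879666 for Prtn3, chr9:110419558-110419807 for Ngp and chr9:111019042-111019291 for Ltf.
Elane: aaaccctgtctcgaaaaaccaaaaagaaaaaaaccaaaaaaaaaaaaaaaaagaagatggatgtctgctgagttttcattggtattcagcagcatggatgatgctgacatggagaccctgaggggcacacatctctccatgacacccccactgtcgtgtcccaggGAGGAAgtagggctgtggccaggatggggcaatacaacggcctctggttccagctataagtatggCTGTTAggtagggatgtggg
Prtn3: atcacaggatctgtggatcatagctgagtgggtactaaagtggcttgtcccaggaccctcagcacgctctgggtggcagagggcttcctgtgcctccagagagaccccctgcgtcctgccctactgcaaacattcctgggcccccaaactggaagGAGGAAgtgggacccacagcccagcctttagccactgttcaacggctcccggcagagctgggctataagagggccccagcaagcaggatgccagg
Ngp: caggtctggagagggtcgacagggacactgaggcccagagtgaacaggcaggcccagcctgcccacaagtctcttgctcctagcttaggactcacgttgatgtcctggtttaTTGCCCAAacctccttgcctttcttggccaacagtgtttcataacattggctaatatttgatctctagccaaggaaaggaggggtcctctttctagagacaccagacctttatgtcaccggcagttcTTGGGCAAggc
Ltf: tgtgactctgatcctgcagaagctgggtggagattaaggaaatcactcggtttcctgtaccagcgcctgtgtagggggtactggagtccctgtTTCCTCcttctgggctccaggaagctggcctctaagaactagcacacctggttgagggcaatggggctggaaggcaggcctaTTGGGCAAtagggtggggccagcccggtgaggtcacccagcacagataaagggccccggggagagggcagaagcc
The capitals in Elane are a GAGGAA match starting at base -85 and a TAACNG match on the opposite strand at -20, and in Prtn3 a GAGGAA match at -95, counted back from the transcription start. Ngp carries TTGCNNAA matches at -138 and, on the opposite strand, at -11, and Ltf has matches on the opposite strand to GAGGAA at -157 and to TTGCNNAA at -75. No marked matches overlap in these 4 windows. Over the 10 genes, TTGCNNAA was found upstream of Ngp, Ltf, Lcn2 and S100a9 and of none of the 4 primary granule genes, against 9.56% of the 32851 RefSeq promoters of the same length. At that share, its absence from 4 genes says little. GAGGAA was found in 7 of the 10 (23.3% of all promoters), TAACNG in Mpo and Elane (19.8%) and TATAAA in Ctsg and S100a8 (12.4%). The TATAAA match started at -30 in S100a8 and, on the opposite strand, at -237 in Ctsg. Camp, a secondary granule gene, had no match to any of these motifs. A match is a run of letters and not a shown binding site.

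The libraries held 17695997 to 20066581 expected counts each. Erythroblast markers were abundant in all of them, with summed levels over 10 such genes of 69774, 71521 and 56298 CPM in CDs 1 to 3 and 72415, 71127 and 60772 CPM in untreated 1 to 3, where CPM is the count scaled to library size, with TMM factors. The 10 granule genes together took 0.0392%, 0.134% and 0.237% of the counts in CDs 1 to 3 and 0.0272%, 0.0876% and 0.226% in untreated 1 to 3. They were thus a minor part of the RNA in every library. In bulk RNA, fewer cells of a type and less RNA per cell cannot be told apart. From library to library the counts of each of the 10 genes followed its FPKM with a deviation of at most 0.00233 (root mean square, log2), against a median of 0.00540 over 8849 genes.

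Whether CDs alter the granule genes is asked by the only comparison of the design. All 10 genes had a higher mean with CDs, but the libraries of the groups overlapped in every gene, and libraries 1 and 3 of the same group differed more than treated and untreated libraries of the same number did. Set beside the untreated library of the same number, CDs 1 and CDs 2 were higher in all 10 genes, while CDs 3 was near untreated 3 in most of them. The edgeR quasi-likelihood test called 0 of the 10 genes, and 0.0% of the 12283 genes tested, at an adjusted p under 0.05. At an unadjusted p under 0.05 this test had 127 genes, 0 of them among the 10. The fitted log2 fold change was above 0 in 10 of 10 genes, beside 51.9% of all genes, with a median of 0.27 over the 10 and 0.01 over all genes. Most of the genes varied together over the libraries, so here and below a count of genes is not a count of separate observations. In fits without CDs 3, 6 of the 10 fell below 0, and in fits without untreated 1, 7 of the 10 did. Libraries of the groups were without overlap in 0 of the 10 genes, beside 2.37% of all genes for CDs higher and 2.33% for CDs lower.

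**Figure D1:**
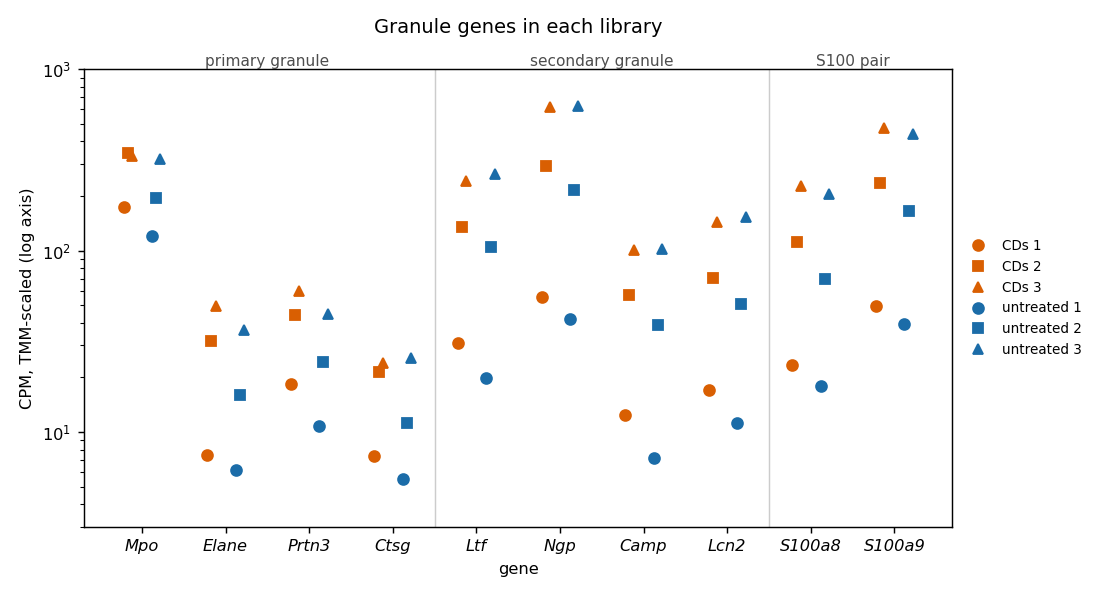
Level of each granule gene in each library, in TMM-scaled CPM on a log axis, with orange symbols for CDs, blue symbols for untreated and the symbol shape for the replicate number. In every gene both libraries numbered 1 lie lowest, and each group's library numbered 3 lies highest except for Mpo in CDs, where CDs 2 (344 CPM) is above CDs 3 (332 CPM).

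Mpo, per length the most abundant primary granule transcript, measured 174, 344 and 332 CPM in CDs 1 to 3, against 120, 194 and 319 CPM in untreated 1 to 3. CDs 2 and CDs 3 were the highest libraries, but CDs 1 lay below untreated 2, so the groups overlap. The means were 284 ± 94.9 CPM with CDs and 211 ± 101 CPM untreated (SD, n = 3 each), a log2 fold change of 0.42 ± 0.44 (SE, edgeR adjusted p = 0.994).

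Prtn3, proteinase 3, measured 18.5, 44.4 and 60.2 CPM in CDs 1 to 3, against 10.8, 24.2 and 44.6 CPM in untreated 1 to 3. The CDs library was the higher of each number, while CDs 1 lay below untreated 2. The log2 fold change was 0.63 ± 0.65 (edgeR adjusted p = 0.994), the largest of the 10. With the replicate number as a block it was 0.69 ± 0.11 (edgeR adjusted p = 0.0916), and DESeq2 with the block called it (adjusted p = 0.00140, over all fits from 0.000204 to 1.00).

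Elane, neutrophil elastase, measured 7.5, 31.5 and 49.5 CPM in CDs 1 to 3, against 6.15, 15.9 and 36.3 CPM in untreated 1 to 3. Again the CDs library was the higher of each number and the groups overlap. Its log2 fold change was 0.602 ± 0.88 (edgeR adjusted p = 0.994), and with the block 0.596 ± 0.15 (edgeR adjusted p = 0.101). DESeq2 with the block called Elane too (adjusted p = 0.0435, over all fits from 0.0240 to 1.00). These 2 calls among 10 genes, both higher with CDs, stand beside 7.7% of all tested genes that DESeq2 with the block called higher, and 9.78% that it called in either direction. DESeq2 without the block called 0 of the 10 genes, beside 0.114%, and limma-voom with the block 0 of 10, beside 0.057%.

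Ctsg, cathepsin G, per length the scarcest of the set, had 7.32, 21.4 and 23.9 CPM in CDs 1 to 3 and 5.48, 11.3 and 25.6 CPM in untreated 1 to 3. It was higher in CDs 1 and CDs 2 than in their numbered partners and lower in CDs 3 than in untreated 3, the last by a ratio of 0.934 with a 95% counting interval of 0.824 to 1.06. The log2 fold change was 0.32 ± 0.70 (edgeR adjusted p = 0.994).

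Among the secondary granule genes, Ngp measured 55.8, 292 and 623 CPM in CDs 1 to 3, against 42.0, 216 and 631 CPM in untreated 1 to 3. The libraries numbered 3 were nearly equal and stood more than 10-fold above both libraries numbered 1. The fitted log2 fold change of 0.13 ± 1.17 (edgeR adjusted p = 0.995) had a standard error several times its size.

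Ltf, lactotransferrin, measured 30.9, 135 and 242 CPM in CDs 1 to 3, against 19.8, 105 and 263 CPM in untreated 1 to 3. Camp measured 12.5, 56.8 and 101 CPM in CDs 1 to 3, against 7.18, 38.8 and 103 CPM in untreated 1 to 3. Lcn2 measured 17.1, 70.8 and 144 CPM in CDs 1 to 3, against 11.3, 51.1 and 153 CPM in untreated 1 to 3. In each of these 3 genes the CDs library was the higher of numbers 1 and 2 and, on TMM-scaled totals, the lower of number 3, which for Camp turned round on plain totals, as it did for Ngp. The log2 fold changes were 0.07 ± 1.08 for Ltf, 0.20 ± 1.10 for Camp and 0.11 ± 1.10 for Lcn2 (edgeR adjusted p = 0.997, 0.994 and 0.995).

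S100a8 measured 23.3, 111 and 226 CPM in CDs 1 to 3, against 17.9, 70.0 and 206 CPM in untreated 1 to 3. S100a9 measured 49.7, 237 and 472 CPM in CDs 1 to 3, against 39.4, 165 and 437 CPM in untreated 1 to 3. The CDs library was the higher of each number in both genes, with the groups overlapping. The log2 fold changes were 0.29 ± 1.10 for S100a8 and 0.24 ± 1.08 for S100a9 (edgeR adjusted p = 0.994 for each).

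**Figure D2:**
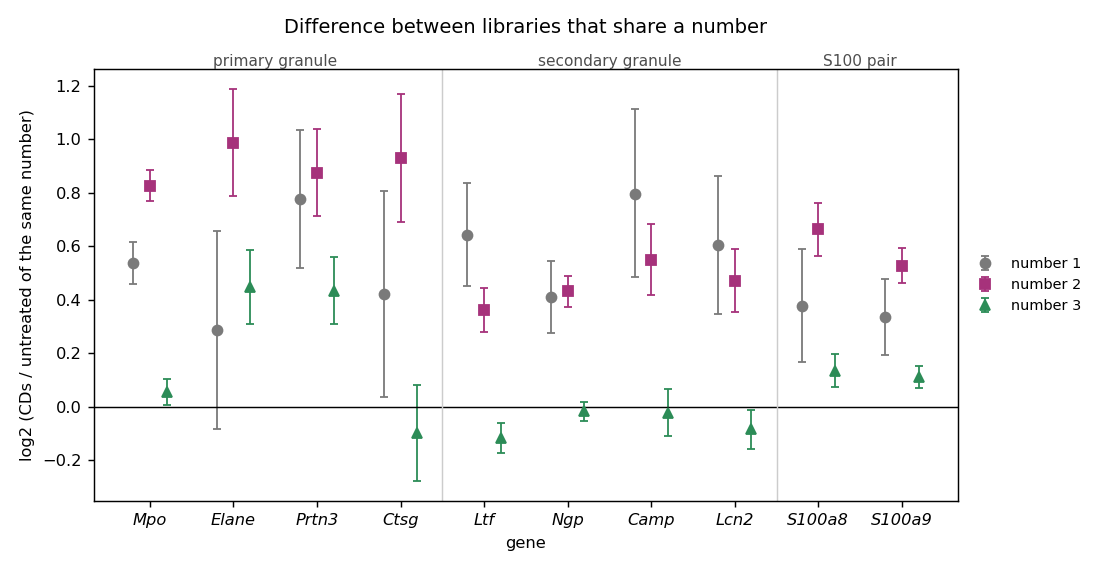
The log2 ratio of each CDs library to the untreated library of the same number, per gene, with 95% intervals that cover counting error only. Numbers 1 and 2 lie above 0 in all 10 genes, and number 3 lies near 0 in the secondary granule genes, with ratios between 0.921 and 0.988.

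Libraries of the same number deviated together from their group means in numbers 1 and 3 (correlations 0.91 and 0.94). In number 2 they did so less (0.345), and untreated 2 correlated more with CDs 1 (0.68). The differences were also taken within each number, although the labels do not state that the numbers are pairs. CDs 1 exceeded untreated 1 in 10 of 10 genes by ratios of 1.22 to 1.74, with counting intervals above 1 in 9 of them. The exception was Elane, at 1.22 (95% interval 0.944 to 1.58, from 131 and 119 counts). CDs 2 exceeded untreated 2 in 10 of 10 genes by 1.28 to 1.98, with all 10 intervals above 1. Ratios of at least 1.2 were thus reached by 10 of 10 genes in number 1 and 10 of 10 in number 2, against 25.8% and 30.7% of all genes tested. In number 3 this ratio was reached by 2 of 10 genes, Elane (1.36) and Prtn3 (1.35), against 22.7% of all genes tested. The limit of 1.2 lies just under the smallest ratio of number 1 (Elane, 1.22), and most of the genes varied together.

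The ranges of the classes differed by number. In number 2 the ratio was 1.77 to 1.98 in the 4 primary granule genes, 1.28 to 1.46 in the 4 secondary granule genes and 1.44 to 1.58 in the S100 pair, with no overlap between primary and the others. In number 3 it was 0.934 to 1.36 in the primary, 0.921 to 0.988 in the secondary and 1.08 to 1.10 in the S100 genes. When libraries were scaled by their total counts in place of TMM, Ngp (1.01) and Camp (1.01) stood above 1 in number 3. On TMM-scaled totals, the counting interval of number 3 lay above 1 in 5 genes, Mpo, Elane, Prtn3, S100a8 and S100a9. It lay below 1 in 2 genes, Ltf (0.886 to 0.958) and Lcn2 (0.897 to 0.992). In number 1 the order was different, with 1.22 to 1.71 in primary, 1.33 to 1.74 in secondary and 1.26 to 1.30 in S100 genes. Of the 10 genes, Mpo, Elane, Prtn3, S100a8 and S100a9 were higher with CDs in all 3 numbers, against 30.2% of all genes tested.

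With the replicate number as a block, edgeR called 0 of the 10 genes, beside 0.0407% of all genes, with adjusted p from 0.0916 (Prtn3) to 0.313 (Ltf). At an unadjusted p under 0.05 this fit had 6 of the 10 genes, beside 29.9% of all genes. When both libraries numbered 3 were left out, the blocked edgeR fit called 10 of 10 higher with CDs, beside 12.2% of all genes called higher and 15.2% called in either direction, with log2 fold changes from 0.40 (Ngp) to 0.81 (Prtn3) and adjusted p from 0.000185 to 0.0240. When both libraries numbered 2 were left out it called 1 of 10, Prtn3 (0.55, edgeR adjusted p = 0.0104), beside 4.84% called higher and 7.16% called in either direction. When both numbered 1 were left out it called 0 of 10, beside 0.0%. These fits on 4 libraries have few residual degrees of freedom and lean on the spread estimated over all genes.

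Without the block, a single library could turn the direction. Without CDs 3 the fitted log2 fold changes ran from -0.77 to 0.30, with 6 of 10 below 0, and without untreated 1 from -0.44 to 0.25, with 7 of 10 below 0. Without untreated 2 they ran from -0.09 to 0.57, with 3 of 10 below 0. Without untreated 3 they ran from 0.85 to 1.45, all above 0, and none of these fits called any of the 10 genes.

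In each of the 10 genes the ratio of number 3 to number 1 within a group was larger than the ratio of CDs to untreated within any number. Among the untreated libraries, untreated 3 exceeded untreated 1 by 2.66-fold in Mpo, 4.13-fold in Prtn3, 4.67-fold in Ctsg and 5.90-fold in Elane. The same ratio was 13.3 in Ltf, 13.6 in Lcn2, 14.3 in Camp and 15.0 in Ngp, and 11.5 in S100a8 and 11.1 in S100a9. All 10 genes exceeded 2-fold, against 23.4% of the genes tested, and 7 exceeded 5-fold, against 13%. Elane was the only primary granule gene among these 7. Untreated 2 lay between, at 1.62 to 2.59 times untreated 1 in the primary, 4.53 to 5.41 times in the secondary and 3.91 to 4.18 times in the S100 genes. At least 2-fold was reached there by 9 of 10 genes, all but Mpo, beside 8.3% of all genes.

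The CDs libraries repeated this order. CDs 3 exceeded CDs 1 by 1.91-fold in Mpo to 6.61-fold in Elane among the primary granule genes, by 7.84 to 11.2-fold in the secondary and by 9.51 to 9.71-fold in the S100 genes. Of the 10 genes, 9 exceeded 2-fold, beside 23.4% of all genes, and 7 exceeded 5-fold, beside 11.1%. From CDs 2 to CDs 3 the primary granule genes differed by ratios of 0.964 to 1.57 and the secondary ones by 1.77 to 2.14. Mpo was the gene at 0.964, and on plain totals its ratio was 1.01.

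Per length, S100a9 was the most abundant of the set in 6 of 6 libraries and Ctsg the least in 6 of 6. S100a8 was next to S100a9 in every library but CDs 1, where Mpo (66.9 FPKM) stood above it (63.2 FPKM). The mean over all 6 libraries was 476 FPKM for S100a9, 304 for S100a8 and 274 for Ngp, followed by Mpo (96.8), Camp (93.6), Lcn2 (90.7), Ltf (48.6), Prtn3 (35.6), Elane (27.4) and Ctsg (16.2). These means are carried by the libraries numbered 3, and several neighbours in their order change places between libraries. Mpo was above Camp and Lcn2 in the libraries numbered 1 and 2 and below both in those numbered 3, and in the libraries numbered 1 it was also above Ngp, with 66.9 FPKM against 47.8 FPKM for Ngp in CDs 1 and 45.3 FPKM against 35.4 FPKM in untreated 1. Camp and Lcn2 also changed places, as did Prtn3 and Ltf, with Prtn3 above Ltf in both libraries numbered 1. In CDs 3 S100a9 (989 FPKM) ranked 49 of 17691 genes and in untreated 3 (895 FPKM) 77, whereas in CDs 1 (98.6 FPKM) and untreated 1 (76.5 FPKM) it ranked 768 and 1038.

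**Figure D3:**
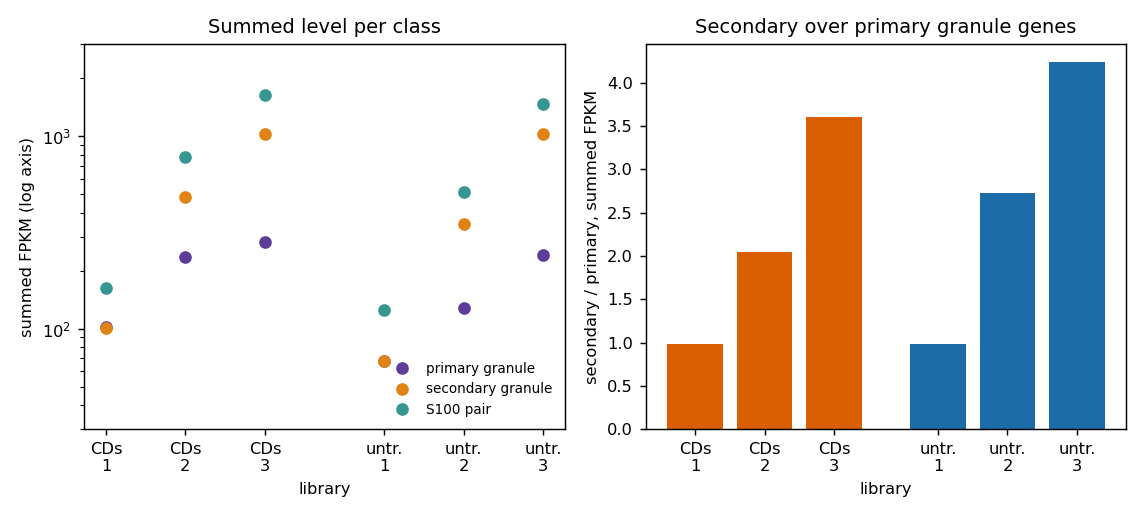
Left, summed FPKM of the 4 primary granule genes, the 4 secondary granule genes and the S100 pair in each library on a log axis. Right, the ratio of secondary to primary summed FPKM, which is 0.989 in CDs 1 and in untreated 1 and reaches 3.6 in CDs 3 and 4.24 in untreated 3.

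The balance of secondary to primary granule transcripts differed by replicate number. Summed over each class, the ratio of secondary to primary FPKM was 0.989, 2.05 and 3.6 in CDs 1 to 3, and 0.989, 2.73 and 4.24 in untreated 1 to 3. It was equal in the libraries numbered 1 and lower with CDs in those numbered 2 and 3. The summed primary FPKM were 102, 235 and 283 in CDs 1 to 3 and 68.2, 128 and 242 in untreated 1 to 3. The summed secondary FPKM were 100.4, 482 and 1018 in CDs 1 to 3 and 67.5, 348 and 1023 in untreated 1 to 3. For the pair of Ngp and Mpo the ratio was 0.715, 1.89 and 4.19 in CDs 1 to 3 and 0.782, 2.48 and 4.41 in untreated 1 to 3. No p is given for these sums, since the genes were chosen with earlier results known.

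The S100 pair and the secondary granule genes followed each other more closely over the libraries than the primary granule genes did. S100a9 stood at 1.56, 1.56 and 1.53 times S100a8 in CDs 1 to 3 and 1.60, 1.72 and 1.55 times in untreated 1 to 3 (FPKM). Ltf stood at 0.507 to 0.622 times Lcn2 over the 6 libraries. The neighbours Elane and Prtn3 did not hold 1 ratio, with Elane at 0.429, 0.753 and 0.871 times Prtn3 in CDs 1 to 3 and 0.603, 0.696 and 0.862 times in untreated 1 to 3. As a measure of likeness, the root mean square difference of log2 CPM, centred over the 6 libraries, was 0.06 between S100a8 and S100a9, 0.08 to 0.16 among the secondary granule genes and 0.106 to 0.164 between these and the S100 pair. It was 0.19 to 0.62 among the primary and 0.39 to 1.05 between primary and secondary granule genes. The largest value within the primary class was that between Mpo and Elane.

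By the same measure, among 9257 genes with a mean of at least 5 CPM, the 5 genes outside the set most like Ngp were Stfa2l1 (0.133), Stfa3 (0.135), Itgb2l (0.137), Chil1 (0.18) and Arhgap26 (0.19). The first pair belong to the stefins, inhibitors of cysteine proteases with close copies between which reads can be divided, and Itgb2l encodes an integrin beta chain. In the full order by likeness to Ngp, Lcn2, S100a9, S100a8, Ltf and Camp took places 4 to 8, whereas Elane was at 114, Ctsg at 675, Prtn3 at 815 and Mpo at 1401. The 5 genes most like Mpo were Igfbp4 (0.103), Tmem198b (0.141), Mfge8 (0.154), Gfod1 (0.16) and Atp2a3 (0.168). Igfbp4, an insulin-like growth factor binding protein gene, measured 13.1, 22.6 and 22.4 CPM in CDs 1 to 3 and 7.18, 12.1 and 21.0 CPM in untreated 1 to 3. In the order by likeness to Mpo, Prtn3 was at 225, Ctsg at 319 and Elane at 3686.

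Most measured genes next to the granule genes on the chromosome had smaller ratios between the untreated libraries than the granule genes beside them. Beside Elane and Prtn3, untreated 3 over untreated 1 was 0.878 for Med16, 0.699 for Ptbp1 and 1.2 for Plppr3, against 5.90 and 4.13 for the granule genes. Plppr3 overlaps Prtn3 on the opposite strand in GENCODE M21, and reads there cannot be told apart in a protocol that names no strand-marking step. Plppr3 measured 7.90, 10.6 and 9.21 CPM in CDs 1 to 3 and 8.42, 10.3 and 10.1 CPM in untreated 1 to 3, a pattern unlike that of Prtn3. Beside Ltf the ratio was 1.37 for Rtp3 and 1.69 for Ccrl2, and beside Camp 0.683 for Nme6 and 0.549 for Cdc25a. Mcpt8, which encodes a basophil protease of the same family as cathepsin G, had a larger ratio than Ctsg beside it (21.8 against 4.67). Other neighbours had raised ratios that stayed below those of their granule genes. These were S100a6 near S100a8 (9.73), Map4 near Camp (4.30), Kif9 near Ngp (3.78), and Klhl18 and Mks1, near Ngp and Mpo (2.06 each). Mpo overlaps the antisense gene Gm11505 in this annotation, so a part of its reads could belong to that gene.

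Other granule genes were also higher in the libraries numbered 3. Of 41 tested genes on 3 further lists (azurophil and promyelocyte, specific granule, gelatinase and secretory granule), 40 were at least 2-fold higher in untreated 3 than in untreated 1, beside 23.4% of all genes, and the remaining gene, Ly6g, a surface antigen of mature neutrophils, had 0 counts in untreated 1. EdgeR called 0 of the 41, and 21 were higher with CDs in all 3 numbers, beside 30.2% of all genes. Their median log2 fold change was 0.28, against 0.01 over all genes tested, with 38 of 41 above 0, beside 51.9% of all genes. DESeq2 with the block called 8 higher, beside 7.7% of all genes, among them Ctsc, which encodes cathepsin C, the activator of the granule serine proteases (120, 421 and 1293 CPM in CDs 1 to 3, and 56.1, 124 and 950 CPM in untreated 1 to 3, adjusted p = 0.000162), and Itgam, the integrin CD11b (adjusted p = 2.37e-05). The promyelocyte gene Ms4a3 measured 2.92, 7.8 and 11 CPM in CDs 1 to 3 and 2.48, 4.5 and 9.38 CPM in untreated 1 to 3 (log2 fold change 0.41 ± 0.67, edgeR adjusted p = 0.994). Mmp8, the collagenase of specific granules, measured 13.7, 57.1 and 90.7 CPM in CDs 1 to 3 and 7.08, 28.8 and 91.3 CPM in untreated 1 to 3 (0.345 ± 1.05, edgeR adjusted p = 0.994). DESeq2 with the block called neither Ms4a3 (adjusted p = 0.417) nor Mmp8 (adjusted p = 0.0630).

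Of 8 transcription factor genes of the granulocyte line, 7 were tested, edgeR called 0 and 7 had log2 fold changes above 0 (median 0.345), beside 51.9% of all genes. Cebpe, the factor of the secondary granule stage, measured 3.15, 7.55 and 11.7 CPM in CDs 1 to 3 and 1.29, 5.12 and 13.9 CPM in untreated 1 to 3, higher with CDs in numbers 1 and 2 and lower in number 3. Cebpa, which acts earlier, measured 8.87, 25.2 and 94.0 CPM in CDs 1 to 3 and 5.01, 10.1 and 63.3 CPM in untreated 1 to 3. Spi1, which encodes PU.1, measured 31.6, 99.4 and 268 CPM in CDs 1 to 3 and 16.4, 35.3 and 219 CPM in untreated 1 to 3. DESeq2 with the block called 2 of them higher, beside 7.7% of all genes, Cebpa (adjusted p = 0.000605) and Spi1 (adjusted p = 0.00226), while Cebpe did not pass (adjusted p = 0.492).

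The receptor list had 10 tested members, of which edgeR called 0 and 10 had log2 fold changes above 0 (median 0.42), beside 51.9% of all genes. DESeq2 with the block called 6 of the 10 higher, beside 7.7% of all genes, and 9 were higher with CDs in all 3 numbers, beside 30.2%. Csf3r, the receptor for the granulocyte growth factor G-CSF, had the opposite order over the numbers. It measured 116, 78.9 and 36.4 CPM in CDs 1 to 3, against 15.6, 11.7 and 10.02 CPM in untreated 1 to 3, so that it was highest in the libraries numbered 1, in which all 10 granule genes were lowest. The groups were apart in Csf3r, whereas they overlapped in all 10 granule genes. Its log2 fold change was 2.63 ± 0.47 (edgeR adjusted p = 0.994), and DESeq2 with the block called it (adjusted p = 3.47e-24). The receptor Csf2rb, a signalling chain for GM-CSF and related cytokines, had the same order as most granule genes, with 70.3, 212 and 400.3 CPM in CDs 1 to 3 and 36.5, 94.8 and 359 CPM in untreated 1 to 3. The chemokine receptor gene Cxcr2 of mature neutrophils measured 9.5, 13.8 and 18.8 CPM in CDs 1 to 3 and 8.52, 11.7 and 18.4 CPM in untreated 1 to 3. Of 6 genes of the NADPH oxidase, which neutrophils and macrophages share, edgeR called 0 and DESeq2 with the block called 5 higher, beside 7.7% of all genes. All 6 were higher with CDs in all 3 numbers, beside 30.2% of all genes (median log2 fold change 0.48).

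**Figure D4:**
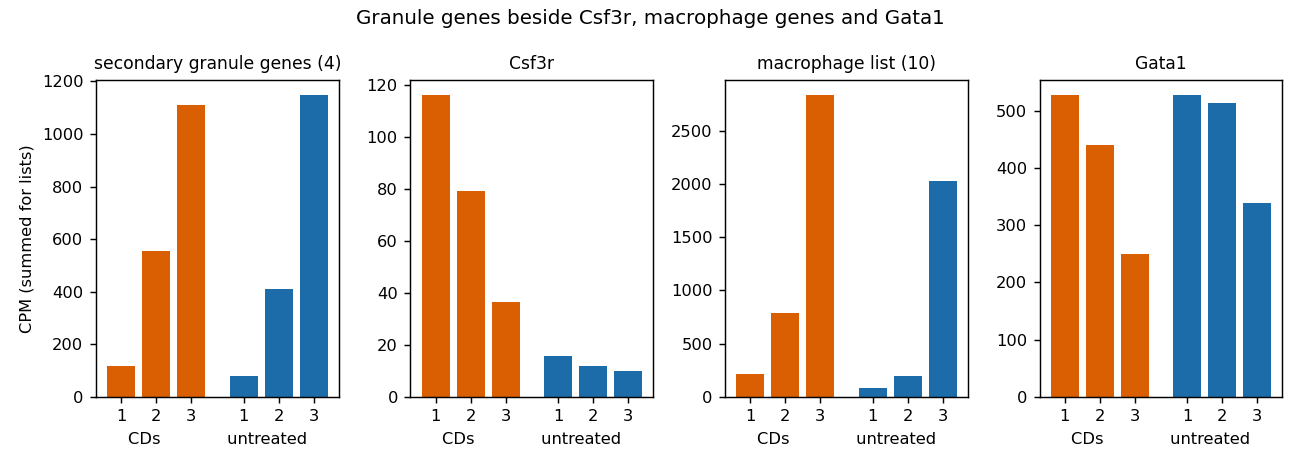
Bars give the CPM in each library, numbered 1 to 3 within CDs (orange) and untreated (blue), of the 4 secondary granule genes (summed), Csf3r, the 10 macrophage markers (summed) and Gata1. Csf3r is at 36.4 CPM or more in every CDs library and at 15.6 CPM or less in every untreated one, while the secondary granule genes reach 1111 CPM in CDs 3 and 1149 CPM in untreated 3.

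Summed markers of macrophages, monocytes and mature neutrophils were likewise lowest in number 1 and highest in number 3. Csf3r, on the mature neutrophil list, ran the other way. The 10 macrophage markers summed to 214, 789 and 2840 CPM in CDs 1 to 3, against 79.9, 195 and 2027 CPM in untreated 1 to 3, and Timd4, the least abundant, stayed at or under 0.289 CPM. DESeq2 with the block called 7 of these 10 higher, beside 7.7% of all genes, and edgeR without it 0. The 6 monocyte markers summed to 74.0, 314 and 1089 CPM in CDs 1 to 3, against 42.5, 116 and 987 CPM in untreated 1 to 3. The 8 mature neutrophil markers summed to 148, 188 and 255 CPM in CDs 1 to 3, against 37.1, 74.5 and 221 CPM in untreated 1 to 3, sums in which Csf3r weighs heavily, and Ly6g, the defining antigen, stayed at or under 1.32 CPM. DESeq2 with the block called 1 of these 8 higher, Csf3r, beside 7.7% of all genes. Within the numbers the macrophage sum was 2.68, 4.05 and 1.4 times higher with CDs, against 1.46, 1.80 and 1.09 times for the primary and 1.45, 1.35 and 0.966 times for the secondary granule genes. The part of these cells in the granule gene results was not tested.

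Summed erythroid, megakaryocyte, hepatocyte and B cell markers differed less between the untreated libraries than the granule genes did. Gata1, the erythroid transcription factor gene, measured 528, 441 and 249 CPM in CDs 1 to 3 and 528, 513 and 339 CPM in untreated 1 to 3, lowest in both libraries numbered 3. Untreated 3 over untreated 1 was 0.839 for the summed erythroblast markers, 1.23 for 5 megakaryocyte, 1.24 for 5 B cell and 1.57 for 5 hepatocyte markers, against 2.99 for the primary, 14.3 for the secondary granule genes and 11.2 for the S100 pair. Abundant members carry these sums, and scarcer ones could differ more, such as the B cell gene Cd79a, at 0.0517 CPM in untreated 1 and 0.733 CPM in untreated 3, and the platelet glycoprotein gene Gp1bb, at 1.19 CPM in untreated 1 and 3.91 CPM in untreated 3.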

How the data were processed

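Per the labels' protocols, polyadenylated RNA was fragmented, copied with random hexamers and read from one end on a DNA nanoball instrument, with no strand-marking step named. Tools named in the submitters' processing notes, without roles, are DESeq2 1.4.5, RSEM 1.2.12, HISAT2 2.0.4 and Bowtie2 2.2.5, with the build GRCm38.p6. The authors deposited expected counts per gene (30.1% of values not whole), which were rounded to whole numbers here, and a second table taken as FPKM from its values, used to compare levels between genes.

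Low counts were removed with filterByExpr, TMM factors were applied, and treatment was tested as the only term by the quasi-likelihood method of edgeR 4.0.16 (robust, R 4.3.3), with Benjamini-Hochberg adjustment over all 12283 genes. DESeq2 1.42.0, limma 3.58.1 (voom, and log2 of FPKM + 0.1 or + 1), a replicate block, other size factors, no filter and left-out libraries were the alternatives. The standard error given for an edgeR log2 fold change is its absolute value over the square root of the F statistic of the test. The scripts were tested on simulated data. Intervals on ratios of counts are exact binomial at 95% and leave out all error but counting, as amplified reads are not independent. Deviations from the group means correlated at 0.91, 0.345 and 0.94 in numbers 1 to 3, all above the limit of 0.1. The numbers were used as a block in some of the alternative fits and not in the main test. Libraries of unlike number also passed this limit, CDs 2 with untreated 1 (0.14) and CDs 1 with untreated 2 (0.68). Untreated 2 thus correlated more with CDs 1 than with CDs 2. The first principal component of log2 CPM held 88.7% of the variance. With a single axis that large, libraries ordered alike correlate whether or not they are pairs, so the check cannot show pairing. Promoters are from RefSeq, gaps and neighbours from GENCODE M21, both on GRCm38. The 10 genes and the 15 further lists (118 genes, 9 of them on more than 1 list) were chosen with earlier results of these data known. The named genes are the 10, up to 4 members of each list with the smallest unadjusted p, and the 5 most like Mpo and Ngp. Cebpe, Ly6g, Timd4 and the chromosomal neighbours were named after their values were seen.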

Additional observations from a re-analysis of the deposited data

How the results depend on the processing

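The edgeR test without the replicate block called 0 genes in all and 0 of the 10 granule genes. In all, 5 genes were called by edgeR with the replicate block, 14 by DESeq2 without it, 1201 by DESeq2 with it and 7 by limma-voom with it, and 899 and 1835 by edgeR with the block when both libraries numbered 2 or numbered 3 were left out. Of the 10 granule genes, DESeq2 with the block called 2, and edgeR with the block called 1 without number 2 and 10 without number 3. The other settings, leaving out any 1 library included, called 0 of either. With 1 library left out in turn, log2 fold changes ran from -0.51 to 1.30 for Camp, -0.0702 to 1.07 for Ctsg, -0.71 to 1.31 for Lcn2, -0.64 to 1.12 for Ltf, -0.77 to 1.32 for Ngp, -0.55 to 1.45 for S100a8 and -0.58 to 1.31 for S100a9, so these 7 changed direction, while Mpo (0.14 to 0.85), Elane (0.0051 to 1.42) and Prtn3 (0.24 to 1.23) stayed above 0. In every setting that left out no single library, all 10 stayed above 0. The cause of these shifts was not tested. The mean share of counts with CDs over that of untreated was 1.39 for the primary, 1.102 for the secondary granule genes and 1.22 for the S100 pair, and 1.37, 1.09 and 1.197 on TMM-scaled totals. Depth limits the scarcest genes, Elane and Ctsg, which had 119 and 106 counts in untreated 1.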

Other observations

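Granule genes of other leukocytes were also present. The eosinophil granule genes Prg2, major basic protein, and Epx, eosinophil peroxidase, measured 33.8, 74.2 and 147 CPM and 13.9, 18.8 and 44.7 CPM in CDs 1 to 3, against 23.1, 50.2 and 129 CPM and 7.18, 12.4 and 41.0 CPM in untreated 1 to 3. The CDs library was the higher of each number in both. This held for 4 of the 6 eosinophil genes listed, beside 30.2% of all genes tested. DESeq2 with the replicate block called Prg2 (adjusted p = 0.0297) and not Epx (adjusted p = 0.126). Of the 6 genes it called 1 higher, beside 7.7% of all genes. EdgeR called neither Prg2 nor Epx (adjusted p = 0.994 for each).

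Basophil and mast cell genes ran otherwise in number 3. The basophil protease gene Prss34 measured 0.629, 2.57 and 4.63 CPM in CDs 1 to 3, against 1.19, 2.30 and 12.8 CPM in untreated 1 to 3 (log2 fold change -1.05 ± 1.11, edgeR adjusted p = 0.994). Mcpt8 measured 36.3 CPM in CDs 3 and 57.4 CPM in untreated 3, and the mast cell carboxypeptidase gene Cpa3 34.9 CPM in CDs 3 and 58.1 CPM in untreated 3. Over the 6 genes of this list the summed CPM with CDs was 1.33, 1.34 and 0.627 times that of untreated in numbers 1 to 3, against 1.46, 1.45 and 1.10 times for 6 eosinophil genes. Whether these lists differ in their response was not tested.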
